A study of Mus musculus with 5 samples.

Results

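MHC class I antigen presentation was followed through 10 genes of 27998 that were listed in all 5 count tables: H2-K1, H2-D1, H2-Q4, B2m, Tap1, Tap2, Tapbp, Psmb8, Psmb9 and Nlrc5. They were chosen by symbol and not by a cut on measured values, but with earlier results of these data known. The data were single-cell RNA counts from spinal cord cells of mice on a C57/BL6 background that carry the Col1a1GFP reporter. Every group carried the reporter, including the controls. The Healthy group held 3 libraries (Healthy 1, Healthy 2 and Healthy 3) and the EAE group 2 (EAE 1 and EAE 2), from mice with experimental autoimmune encephalomyelitis, a model of autoimmune inflammation of the cord directed at myelin. GFP-positive cells were sorted, so the cells seen are those in which the Col1a1 reporter was active. The labels used here do not state the age of the mice, the way EAE was induced or the day of sampling. Whether separate animals gave the libraries is not stated either, and the p-values therefore reflect library-to-library spread that may be technical.

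MHC class I molecules show short peptides from a cell's own proteins to CD8 T cells. Proteasomes cut the proteins, the TAP transporter carries the peptides into the endoplasmic reticulum, and a loading complex places them on a heavy chain paired with beta-2-microglobulin. Interferon raises most of these genes in many cell types and exchanges the catalytic subunits of the proteasome for those of the immunoproteasome. Fibroblasts of the meninges and of blood vessels are not professional antigen-presenting cells, but like most nucleated cells they carry the class I pathway.

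Barcodes were counted once, because Healthy 1 and EAE 1 shared 1239 barcodes, Healthy 2 and EAE 1 shared 683, and Healthy 1 and Healthy 2 shared 996. A shared barcode was kept where its UMI total was highest, and 724, 429 and 374 barcodes of the Healthy libraries and 1913 and 1238 of the EAE libraries remained after the filters, with median totals from 1213 UMIs in Healthy 1 to 5028 in EAE 2. Cells were gated by the UMIs of fixed marker genes, none of which is one of the 10 genes. The fibroblast gate (Col1a1, Col1a2, Col3a1, Dcn, Lum, Pdgfra) held 631, 384 and 350 Healthy cells and 1670 and 1163 EAE cells, and its 6 markers were detected in each library. Of the defining immune markers in those cells, the summed myeloid list lay between 9.40 and 21.8 CPM (a gene's UMIs scaled to 1e6 UMIs of the summed cells) in the Healthy libraries and at 26.1 and 31.9 CPM in EAE 1 and EAE 2. The summed lymphocyte list lay between 0.808 and 3.36 CPM in Healthy and at 12.3 and 5.46 CPM in EAE, and Cd3g, Cd3d and Cd3e were at 0 in all 3 Healthy libraries. The endothelial list was higher in EAE as well, at 247 and 257 CPM against 77.6 to 106 CPM.

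Of the 10 genes, 8 lie on chromosome 17. On mm10 these are the heavy chain genes H2-K1 (chr17:33996017-34000347, minus strand), H2-D1 (chr17:35262730-35267499, plus strand) and H2-Q4 (chr17:35379617-35385290, plus strand), and the gene of the peptide editor tapasin, Tapbp (chr17:33915899-33929292, plus strand). The other four form a row: Psmb9 (chr17:34181987-34187764, minus strand), Tap1 (chr17:34187553-34197225, plus strand), Psmb8 (chr17:34197721-34201454, plus strand) and Tap2 (chr17:34203527-34216321, plus strand). B2m lies at chr2:122147686-122153083 (plus strand) and Nlrc5 at chr8:94434356-94527272 (plus strand). Each is annotated as protein coding. Class I heavy chains are near copies of each other, so reads could be split or lost between them, and the ends of the transcripts, where these libraries are read, were therefore compared. For 9 of the 10 genes, 0 of 411 stretches of 90 bases in the last 500 bases of the transcript occurred in another gene. H2-Q4 was the exception, with 39 of 411 (9.49%), and its values are less certain for that reason. The genes sharing most of them were Gm43321, Olfr1238, Olfr552, Gm8956, Olfr967 and Gm13722, none of which carries an H2 symbol. Genes sharing fewer were not listed. Stretches from the transcript end of another heavy chain gene, H2-Q6, did occur in H2-Q4.

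Promoter sequence was printed for the genes whose counts are described next, because the heavy chains and B2m share known kinds of control element. RefSeq start sites on GRCm38.p6 (mm10) were matched for 8 of the 10 genes, all except Tap2 and Nlrc5. The stretches read 5′ to 3′ on the strand of the gene, and capitals mark, in order along the H2-K1 stretch, a kB element (GGGATTNCC), the core of an interferon-stimulated response element (TTTCNNTT), the letters TGACG of the X2 box and a CCAAT box, which reads ATTGG on this strand. In the B2m stretch the interferon element is the first run of capitals and lies on the opposite strand. H2-K1 is shown at chr17:34000358-34000462 (minus strand) and B2m at chr2:122147545-122147676 (plus strand), both just upstream of the annotated gene.
H2-K1: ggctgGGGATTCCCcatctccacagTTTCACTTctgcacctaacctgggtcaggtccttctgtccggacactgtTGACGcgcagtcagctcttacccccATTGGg
B2m: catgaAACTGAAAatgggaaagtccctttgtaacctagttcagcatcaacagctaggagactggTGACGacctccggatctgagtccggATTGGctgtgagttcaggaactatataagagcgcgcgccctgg

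The kB and interferon elements of the heavy chains were then set side by side in pieces of 30 bases, with H2-Q6 and H2-Q7 added because their counts are described further on. The pieces lie at chr17:34000429-34000458 (H2-K1, minus strand), chr17:35262923-35262952 (H2-D1), chr17:35379443-35379472 (H2-Q4), chr17:35424677-35424706 (H2-Q6) and chr17:35439022-35439051 (H2-Q7), the last 4 on the plus strand. The RefSeq start used for H2-D1 lies downstream of the start of the gene in the GENCODE annotation, from which the gene intervals above were taken, so its piece falls inside that interval.
H2-K1: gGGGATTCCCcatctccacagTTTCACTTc
H2-D1: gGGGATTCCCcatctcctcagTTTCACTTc
H2-Q4: gGGGATTTCCcatctccccagTTTCACTTc
H2-Q6: gGGGATTCCCcatctccccagTTTCACTTc
H2-Q7: gGGGATTCCCatctccccagTTTCACTTct
H2-K1 and H2-D1 matched at 29 of 30 bases, and H2-K1 and H2-Q4 at 28 of 30. The elements start 20 bases apart in the first 4 genes and 19 apart in H2-Q7.

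In the 250 bases before the start of each gene, both strands searched, the kB letters were found in 231 of 27025 windows (0.855%) and the interferon core in 21.6%. CCAAT was found in 34.5%, TGACG in 17.9% and the gamma-activated site TTCNNNGAA in 7.18%. All of kB, interferon core, CCAAT and TGACG stood in 4 windows, those of H2-K1, H2-D1, H2-Q4 and H2-Q7. Counted from the start of the gene, TGACG and the next CCAAT began at -41 and -16 in H2-K1 and at -101 and -76 in H2-D1. In H2-Q7 they began at -64 and -40. In H2-Q4 they began at -73 and -55, so TGACG does not hold the same place relative to CCAAT there. B2m held the interferon core, CCAAT and TGACG, Tap1 and Psmb9 held CCAAT and TGACG, Tapbp held CCAAT, and Psmb8 held the gamma-activated site. Tap1 and Psmb9 start 226 bases apart on opposite strands, and their windows of 300 bases share 275 bases. Their CCAAT and TGACG matches are the same bases, counted once for each gene. The letters were chosen after the windows of these genes had been read, so the shares describe how common each motif is and carry no test. A match is a run of letters and not a measured binding site.

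The first comparison set EAE against Healthy for the 10 genes in fibroblast-gated cells. Of the 9 genes tested, 7 were higher in EAE and 0 lower in edgeR's quasi-likelihood test with Benjamini-Hochberg adjustment over 9861 genes and a threshold of 0.05. These 7 were both classical heavy chains, H2-Q4, B2m, Tap1, Psmb8 and Psmb9. Over all genes tested, 10.1% were higher and 10.7% lower, and the median log2 difference was 0.00 against 1.05 over the 9 genes. Tap2 and Tapbp did not pass, and Nlrc5 had too few UMIs for the filter.

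H2-K1 and H2-D1 encode the classical heavy chains, which hold the peptide. H2-K1 was at 433, 327 and 225 CPM in Healthy 1 to 3 and at 977 and 404 CPM in EAE 1 and EAE 2. The groups overlapped, because EAE 2 lay under Healthy 1. EAE 2 was above Healthy 3, the library of its own batch, and the within-batch log2 differences were 1.36 in the first batch (Healthy 1, Healthy 2, EAE 1) and 0.85 in the second (Healthy 3, EAE 2). The fitted log2 fold change of H2-K1 was 1.05 (SE 0.20; edgeR adjusted p = 0.00376).

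H2-D1 was at 711, 791 and 703 CPM in the Healthy libraries and at 1886 and 1076 CPM in the EAE libraries. Both EAE libraries lay above the 3 Healthy libraries, which were close together. The within-batch log2 differences of H2-D1 were 1.33 and 0.62, and the fitted log2 fold change was 0.93 (SE 0.19; edgeR adjusted p = 0.00547). H2-Q4, a non-classical heavy chain, was at 73.1, 42.8 and 44.4 CPM in Healthy and at 128 and 74.6 CPM in EAE. EAE 2 and Healthy 1 were almost equal in H2-Q4, and on the scale used by the fit, with library sizes corrected by TMM, EAE 2 (71.2 CPM) lay under Healthy 1 (74.9 CPM). In the fit H2-Q4 rose by a log2 value of 0.90 (SE 0.24; edgeR adjusted p = 0.0227), and it missed the threshold in 8 of 20 alternative analyses, among them the fit without any shared barcode (adjusted p = 0.131).

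B2m encodes beta-2-microglobulin, the light chain without which heavy chains do not reach the surface. It was at 957, 1206 and 667 CPM in Healthy 1 to 3 and at 4629 and 1869 CPM in EAE 1 and EAE 2. The groups did not overlap, and EAE 1 stood well above EAE 2. The within-batch log2 differences of B2m were 2.10 and 1.49, and the fitted log2 fold change was 1.74 (SE 0.18; edgeR adjusted p = 1.1e-04).

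Tap1 and Tap2 encode the partner chains of the peptide transporter. Tap1 was at 22.98, 29.1 and 18.8 CPM in Healthy and at 105 and 51.0 CPM in EAE, with no overlap. Its within-batch log2 differences were 2.01 and 1.44, and the fitted log2 fold change was 1.69 (SE 0.23; edgeR adjusted p = 5.7e-04). Tap2 was at 59.5, 75.1 and 61.9 CPM in Healthy and at 65.0 and 52.6 CPM in EAE, so the groups overlapped. The log2 fold change of Tap2 was -0.23 (SE 0.21; edgeR adjusted p = 0.502), with within-batch values of -0.05 and -0.23. The partners of the transporter therefore had different results, although both genes lie in the same row on chromosome 17. The difference between the genes was not tested. Tapbp, the gene of tapasin, which bridges the transporter and the heavy chain, was at 189, 191 and 145 CPM in Healthy and at 280 and 178 CPM in EAE. EAE 2 lay within the Healthy range, and the log2 fold change of Tapbp was 0.35 (SE 0.19; edgeR adjusted p = 0.226).

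Psmb8 and Psmb9 encode catalytic subunits of the immunoproteasome. Psmb8 was at 98.2, 87.3 and 51.8 CPM in Healthy and at 332 and 189 CPM in EAE, without overlap. The within-batch log2 differences of Psmb8 were 1.84 and 1.87, and the fitted log2 fold change was 1.76 (SE 0.19; edgeR adjusted p = 1.3e-04). Psmb9 was at 31.3, 35.6 and 28.9 CPM in Healthy and at 113 and 55.1 CPM in EAE, again without overlap. Its log2 fold change was 1.32 (SE 0.24; edgeR adjusted p = 0.00271), with within-batch values of 1.75 and 0.93.

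Nlrc5 encodes the transactivator that works at class I promoters. It had 0 UMIs in each Healthy library and 44 and 18 UMIs in EAE 1 and EAE 2. These counts are 5.07 CPM (95% Poisson interval 3.69 to 6.81) and 2.59 CPM (1.53 to 4.09), intervals that cover counting error only. Over the pooled Healthy cells a count of 0 allows up to 3 UMIs, or 0.815 CPM. The levels in EAE 1 and EAE 2 were 6.23 and 3.18 times that bound, without regard to the counting error of the EAE libraries. The lower ends of their intervals, 3.69 and 1.53 CPM, also lay above it. Taken library by library, 0 UMIs allow 3.13, 2.42 and 2.02 CPM in Healthy 1 to 3. The interval of EAE 2 covers all of these bounds. Such an overlap is no test, and EAE 2 was not tested against single Healthy libraries. Without the filter on low counts Nlrc5 was among 8 of 10 genes higher in EAE by the edgeR test, where 1651 of 18053 genes were higher. With DESeq2 6 of 10 were higher, Nlrc5 not among them, where 638 of 18053 genes were higher.

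**Figure D1:**
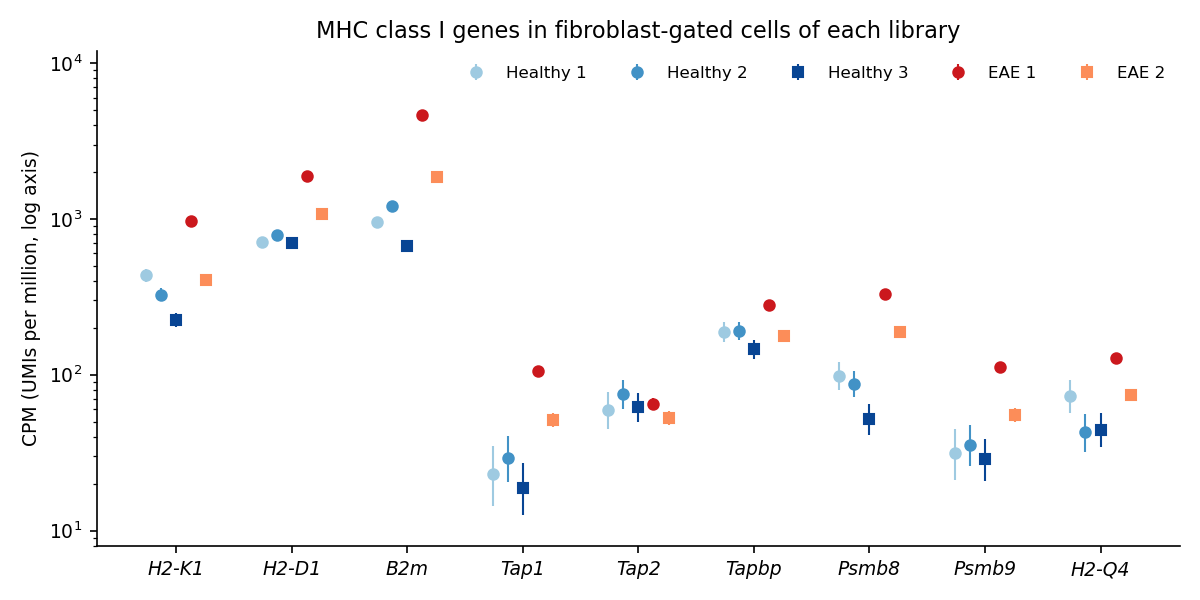
Level of 9 of the genes in fibroblast-gated cells, in CPM on a log axis, for each of the 5 libraries. Points are sums over the gated cells of 1 library (circles first batch, squares second batch) and bars are 95% Poisson intervals. B2m, H2-D1, Tap1, Psmb8, Psmb9 and H2-Q4 show both EAE libraries above the 3 Healthy libraries, while Tap2 shows none of this.

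On plain CPM both EAE libraries lay above the 3 Healthy libraries for 6 of the 9 genes tested, where 27.8% of all genes tested did so. On the TMM-corrected scale this held for 5 of 9, without H2-Q4, where 23.1% of all genes did so. EAE 1 was the higher of the EAE libraries for each of the 10 genes. The calls rest in part on EAE 1: without it, Tap1, Psmb8 and B2m passed and H2-K1, H2-D1, Psmb9 and H2-Q4 did not (3 genes higher). Without the batch term 4 passed, and H2-K1, B2m (adjusted p = 0.0574) and H2-Q4 did not. Tap1 and Psmb8 passed in all 20 alternatives run. In cells without a single UMI of the immune marker lists the same 7 genes passed, and the part of the endothelial markers was not tested.

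Genes around the pathway were read from lists. All 3 measured partners of the immunoproteasome were higher in EAE in the same fit, where 10.1% of all genes tested were higher. Psmb10, its remaining catalytic subunit, was at 61.6, 93.7 and 49.1 CPM in Healthy and 161 and 104 CPM in EAE (log2 fold change 0.96, SE 0.22; edgeR adjusted p = 0.0119). Psme1, a subunit of the PA28 activator, rose by 0.83 (SE 0.20) and its partner Psme2 by 0.74 (SE 0.19) on the log2 scale, with edgeR adjusted p-values of 0.0135 and 0.0199. Psmb10 and Psme1 each missed the threshold in 5 of 20 alternatives, among them the fit with shared barcodes removed from every library. None of the 14 subunits of the constitutive proteasome passed in either direction, and their median log2 difference was 0.16. Among all genes tested 10.1% were higher and 10.7% lower, so a list of this size would hold few calls at that rate. Psmb5, Psmb6 and Psmb7, whose places the immunoproteasome subunits take, had log2 differences of 0.14 (SE 0.20), 0.00 (SE 0.19) and 0.22 (SE 0.19).

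Among 20 other class I chains, 15 were listed in the tables and 6 had enough UMIs. Of these 6, 3 were higher and 0 lower, beside 10.1% higher and 10.7% lower among all genes tested. H2-Q7, a Qa-2 chain, was at 2.09, 4.85 and 3.36 CPM in Healthy and at 170 and 51.9 CPM in EAE. It rose by a log2 value of 4.92 (SE 0.36; edgeR adjusted p = 2.05e-05), more than any of the 9 tested genes did, and the within-batch log2 differences were 5.61 and 3.95. With every barcode as deposited, H2-Q7 had a log2 difference of 2.02 and an edgeR adjusted p of 0.0504. H2-Q6, with 3, 0 and 2 UMIs in Healthy and 237 and 49 in EAE, rose by 3.62 on the log2 scale with an SE of 0.62 (edgeR adjusted p = 0.00206). Of its transcript end, 45 of 411 stretches (10.9%) occur in other genes, among them Cd59b, Gm28625, Efr3a and H2-Q4. H2-T22 was also higher (1.12, SE 0.23), whereas H2-T23 (0.17), Mr1 (0.26) and H2-M3 (log2 difference -0.53) did not pass.

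Of 10 further genes of peptide trimming and loading, 1 was higher and 1 lower, beside 10.1% higher and 10.7% lower among all genes tested, so these counts lie near the background and are no result about the list. Erap1, which trims peptides in the endoplasmic reticulum, was at 10.4, 9.70 and 6.05 CPM in Healthy and 28.7 and 12.7 CPM in EAE (log2 fold change 1.26, SE 0.31; edgeR adjusted p = 0.0140), and it missed the threshold in 7 of 19 alternatives. Hspa5, the chaperone BiP, fell by 1.16 in log2 units, with an SE of 0.21 and an edgeR adjusted p of 0.00261. Calr, Canx and Pdia3, which fold and hold the heavy chain, had log2 differences of 0.11, 0.15 and -0.24 and did not pass. Irf1, an interferon-induced activator of class I genes, was at 102, 127 and 133 CPM in Healthy and at 77.6 and 110 CPM in EAE (log2 difference -0.54, SE 0.21; edgeR adjusted p = 0.0939). Of the class II list, Cd74, the invariant chain, was the only gene with enough UMIs and was higher, at 2.09 to 4.04 CPM in Healthy and 43.7 and 12.2 CPM in EAE, while Ciita, the class II counterpart of Nlrc5, had 0 UMIs in 4 libraries and 2 in EAE 1. The log2 fold change of Cd74 was 2.91 (SE 0.45) with an edgeR adjusted p of 0.0011. It was 1.91 in cells without a UMI of the immune lists, and without EAE 1 it was 1.52 and did not pass.

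**Figure D2:**
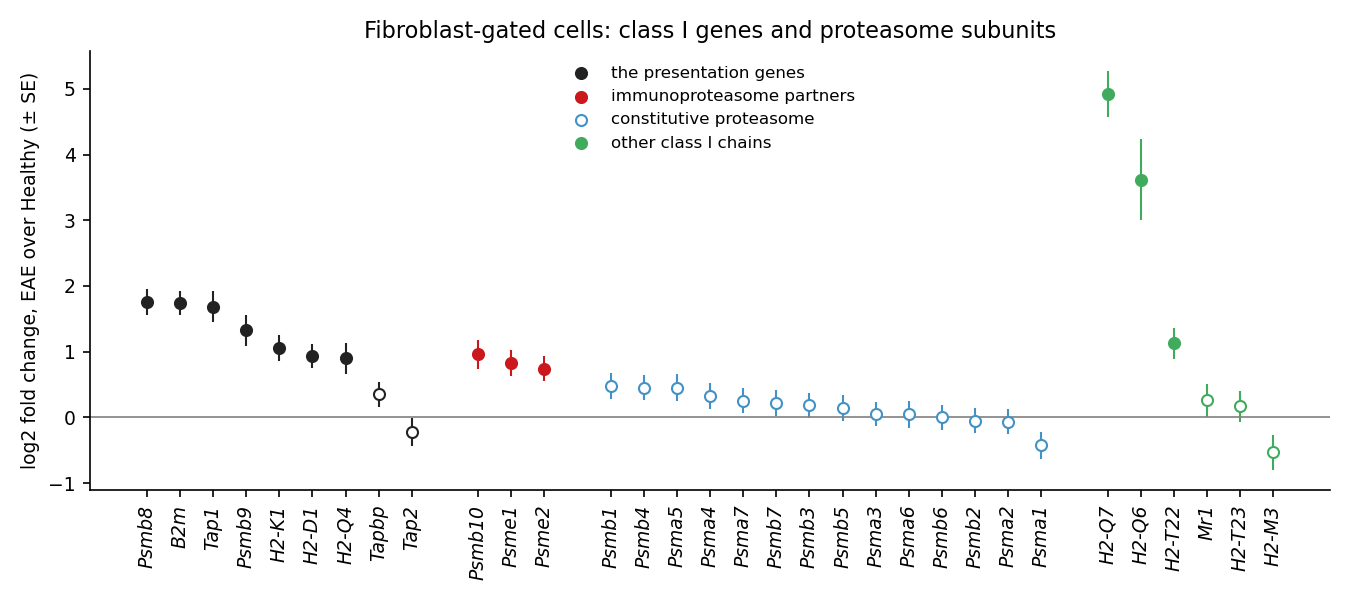
Fitted log2 fold changes, EAE over Healthy, in fibroblast-gated cells with SE as bars, for the presentation genes, the partners of the immunoproteasome, the constitutive proteasome and other class I chains. Filled points passed the adjusted threshold of 0.05 and open points did not. The constitutive subunits lie around 0 and all are open, and H2-Q7 stands highest at 4.92.

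Single cells were compared next, using the summed UMIs of H2-K1, H2-D1 and B2m after thinning each fibroblast-gated cell to 1000 UMIs. Cells with fewer UMIs were left out, which removed 237, 19 and 8 cells of Healthy 1 to 3 and 0 and 44 of EAE 1 and EAE 2. The median cell had 2, 2 and 1 UMIs in the Healthy libraries, whereas it had 7 in EAE 1 and 3 in EAE 2. Per 1000 UMIs without thinning, the medians were 1.53, 1.75 and 1.38 in Healthy and 6.84 and 2.82 in EAE. The middle of the distribution lay higher in both EAE libraries, so the higher sums were not carried by a few cells alone. The 90th percentile was 4 in each Healthy library, and 14 and 7 in the EAE libraries.

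A cut of 4 such UMIs was taken from the Healthy cells, as the highest 90th percentile of their libraries, so low Healthy shares above it follow from the cut. More than 4 such UMIs were found in 9.39% of Healthy 1 cells (exact binomial 95% interval 6.70 to 12.7%), 9.32% of Healthy 2 (6.54 to 12.8%) and 4.39% of Healthy 3 (2.48 to 7.13%). The share was 70.6% in EAE 1 (68.3 to 72.8%) and 25.8% in EAE 2 (23.3 to 28.5%). In EAE 2 most cells thus had 4 such UMIs or fewer, while in EAE 1 most had more than 4. Cells with no such UMI made up 18.8%, 22.5% and 24.9% of the Healthy libraries and 1.50% and 11.8% of EAE 1 and EAE 2. No gated class is expected to lack these genes, so the share that free RNA gives could not be read from these tables, and cells are not replicates, so no test was run over them.

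**Figure D3:**
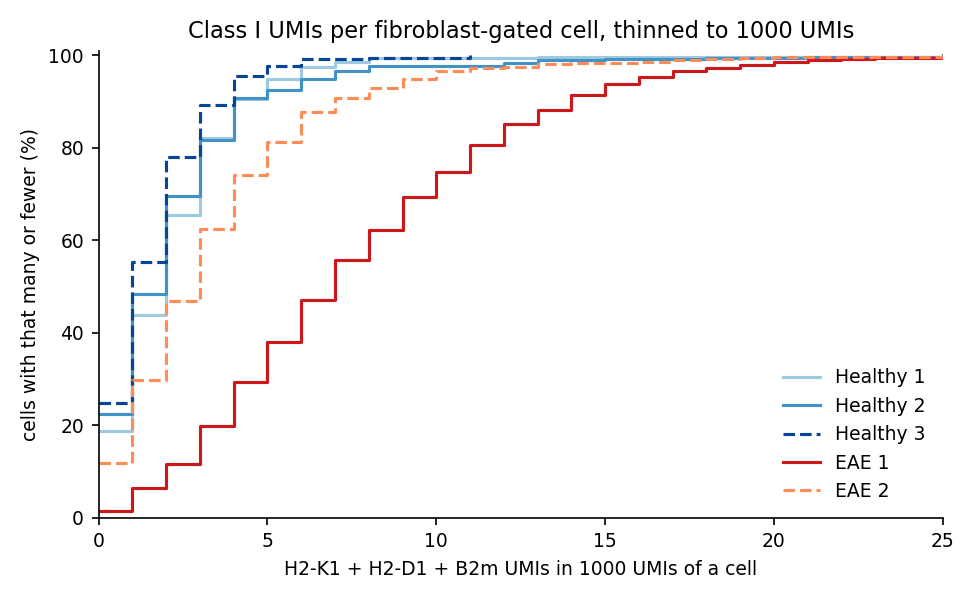
Cumulative share of fibroblast-gated cells (vertical axis, percent) by their H2-K1, H2-D1 and B2m UMIs in 1000 UMIs (horizontal axis), 1 line for each library. The 3 Healthy lines run close together, EAE 2 lies to their right and EAE 1 farther right, with medians of 2, 2, 1, 3 and 7 UMIs in Healthy 1 to 3, EAE 2 and EAE 1.

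The make-up of the fibroblast-gated cells differed between the libraries, so the comparison was repeated in groups of cells with the same leading genes, called sub-gates by those genes. The sub-gate genes were picked with earlier results of these data known. Sub-gates with enough cells in all 5 libraries were Clec3b Fmod Igfbp2 (129, 78 and 88 Healthy cells, 118 and 47 EAE cells) and Itih5 Hsd11b1 Edn3 (75, 30 and 63 Healthy cells, 68 and 131 EAE cells). In each, 5 of the presentation genes were higher in EAE by the same edgeR test and none was lower, where 1.35% and 2.88% of all genes tested were higher.

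In the Clec3b Fmod Igfbp2 cells these were H2-K1, H2-D1, B2m, Tap1 and Psmb8. H2-D1 was at 713, 721 and 872 CPM in Healthy and 2358 and 1778 CPM in EAE (log2 fold change 1.37, SE 0.22; edgeR adjusted p = 0.00921), and Tap1 at 4.54, 23.9 and 21.4 CPM against 116 and 63.0 CPM (2.31, SE 0.50; edgeR adjusted p = 0.0381). In the Itih5 Hsd11b1 Edn3 cells they were H2-K1, H2-D1, B2m, Psmb8 and Psmb9. B2m was at 808, 846 and 748 CPM in Healthy and 5509 and 2295 CPM in EAE (log2 fold change 2.26, SE 0.30; edgeR adjusted p = 7.3e-04), and H2-K1 at 301, 361 and 189 CPM against 1155 and 505 CPM (1.63, SE 0.29; edgeR adjusted p = 0.00445). In the Clec3b Fmod Igfbp2 cells H2-K1 was nearly level in the closest pair of libraries, at 509 CPM in EAE 2 (exact Poisson 95% interval 416 to 616 CPM) and 491 CPM in Healthy 1 (403 to 592 CPM), and these intervals overlap. Tap2 did not pass in either, with log2 differences of 0.55 (SE 0.34) and 0.24 (SE 0.41).

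Within the EAE libraries the sub-gates differed from each other. The summed level of H2-K1, H2-D1 and B2m ran from 4577 CPM in the Inmt Cldn1 Aldh1a3 cells to 9313 CPM in the Igfbp3 Slc13a3 Wnt4 cells of EAE 1. In EAE 2 it ran from 2447 CPM in the Osr2 Gfra1 cells to 4239 CPM in the Itih5 Hsd11b1 Edn3 cells. Each sub-gate with at least 20 cells in both EAE libraries was compared with the cells of no sub-gate, a test added after these levels had been seen.

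Tap1 and Psmb9 were higher in the Tnc Cxcl9 Col7a1 cells, the sub-gate that holds the interferon-induced chemokine gene Cxcl9, where 7.30% of all genes tested were higher. Tap1 was at 167 and 81.3 CPM there in EAE 1 and EAE 2, against 86.7 and 41.9 CPM in cells of no sub-gate (log2 difference 1.01, SE 0.19; edgeR adjusted p = 1.0e-04), and Psmb9 at 147 and 74.6 CPM against 100 and 52.1 CPM (0.60, SE 0.20; edgeR adjusted p = 0.0307). With library totals in place of TMM, Tap1 still passed (edgeR adjusted p = 2.84e-04), whereas Psmb9 had an edgeR adjusted p of 0.0611. The gate itself picks cells with Cxcl9, so genes that vary with Cxcl9 may differ through the choice of cells, which was not tested. Depth differed too, with median totals of 6706 UMIs (EAE 1) and 11142 UMIs (EAE 2) against 3227 and 3181 in cells of no sub-gate. In the same test H2-K1 and H2-D1 had log2 differences of 0.00 (SE 0.19) and -0.07 (SE 0.28), but the libraries went opposite ways. In EAE 1 H2-K1 and H2-D1 were at 979 and 1866 CPM in the Tnc Cxcl9 Col7a1 cells, against 877 and 1617 CPM in cells of no sub-gate. In EAE 2 they were at 285 and 660 CPM, the lowest of the sub-gates, against 365 and 978 CPM. Psmb8 did not pass, though its levels there, 415 CPM in EAE 1 and 227 CPM in EAE 2, were the highest of the sub-gates. In the Inmt Cldn1 Aldh1a3 cells B2m fell by 0.57 (SE 0.16; edgeR adjusted p = 0.0295) in log2 units and Psmb8 decreased by 0.93 (SE 0.22; edgeR adjusted p = 0.00662), where 2.15% of all genes tested were lower. B2m was at 2601 and 1325 CPM there against 4024 and 1851 CPM, and Psmb8 at 175 and 84.8 CPM against 294 and 189 CPM. In the other 5 sub-gates none of the genes passed, and 0 to 2 genes of each had an unadjusted p under 0.05.

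**Figure D4:**
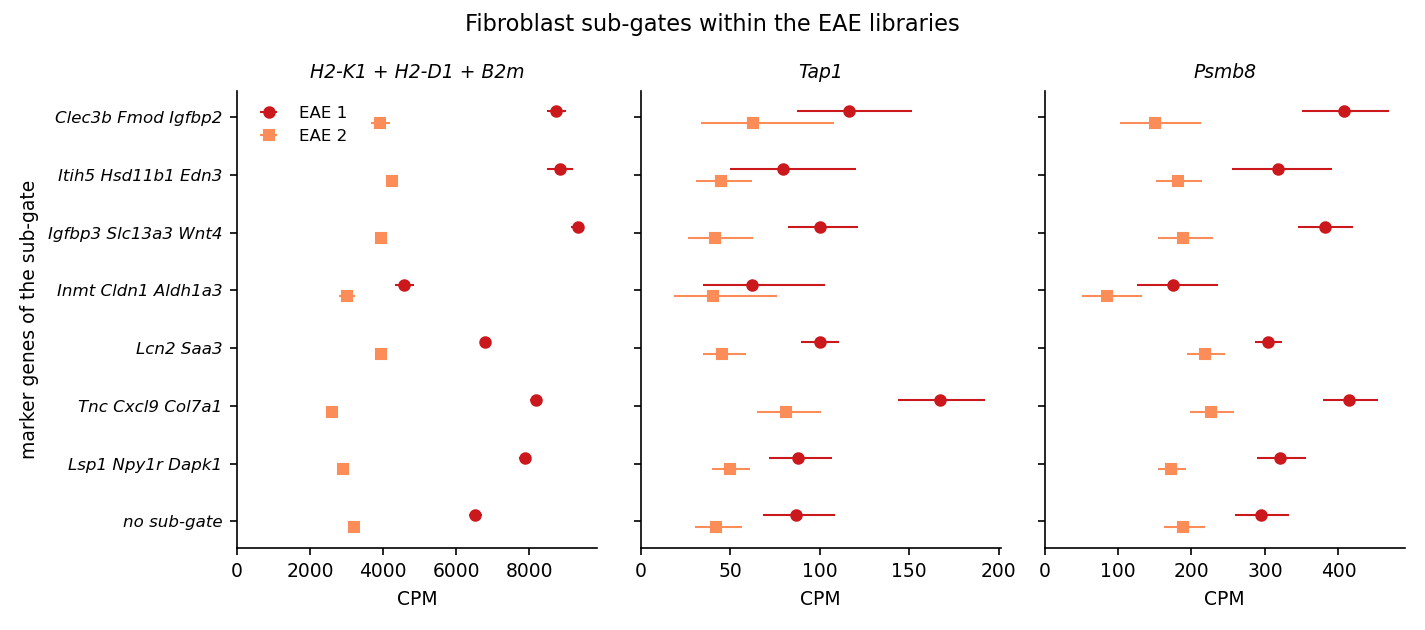
Levels in the fibroblast sub-gates of EAE 1 (red circles) and EAE 2 (orange squares), in CPM with 95% Poisson intervals, for the sum of H2-K1, H2-D1 and B2m, for Tap1 and for Psmb8. Tap1 is highest in the Tnc Cxcl9 Col7a1 cells of both libraries (167 and 81.3 CPM), while the summed heavy chains and B2m are not.

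Mural cells, the pericytes and smooth muscle cells of vessel walls, were the other named class found in every library, with 9, 21 and 18 Healthy cells and 50 and 28 EAE cells. Many of them also passed the fibroblast gate: 1, 8 and 9 in Healthy and 35 and 21 in EAE. With at least 20 cells required no fit could be made, and a fit with at least 5 cells was added. In that fit 2 of the 7 genes tested, H2-K1 and Psmb8, were higher in EAE, where 1.33% of all genes tested were higher. H2-K1 was at 143, 322 and 134 CPM in Healthy and 1326 and 446 CPM in EAE (log2 fold change 2.07, SE 0.44; edgeR adjusted p = 0.0256). Psmb8 was at 71.7, 124 and 60.9 CPM in Healthy and 528 and 311 CPM in EAE (2.27, SE 0.48; edgeR adjusted p = 0.0256), from 1, 10 and 5 UMIs in Healthy.

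B2m was at 717, 2832 and 1230 CPM in Healthy mural cells and 7754 and 3679 CPM in EAE, without overlap, but did not pass (log2 difference 1.83, SE 0.45; edgeR adjusted p = 0.0564). H2-D1 did not pass either (1.52, SE 0.40; edgeR adjusted p = 0.0696). These mural counts are small, and 0 of the presentation genes passed with DESeq2, without the batch term, with the stricter gate, or without Healthy 2. Few genes of any kind were higher there: 5 of 12419 with DESeq2 and 4 of 1655 without the batch term. With the stricter gate 0 of 2206 were higher, and 0 of 2198 without Healthy 2. With that gate 6 of the 7 presentation genes tested had an unadjusted edgeR p under 0.05 in either direction, beside 268 of 2206 genes. Whether the difference between the states was itself different in mural and fibroblast-gated cells was tested with a class by state term: 0 of 9 genes passed and 0 had an unadjusted p under 0.05, where 0.55% of all genes passed in either direction. For H2-K1 that term was 1.22 (SE 0.63; edgeR adjusted p = 0.747), so these cells could not resolve a difference of that size between the classes. The median of the term over all genes tested was 0.28, and -0.01 with library totals.

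Inside the EAE libraries the immune classes had levels above those of fibroblast-gated cells for several genes, but not for all. In EAE 1 Tapbp was at 188 CPM in myeloid-gated and 71.0 CPM in lymphocyte-gated cells, against 280 CPM in fibroblast-gated cells. H2-Q4 was at 42.5 CPM in the myeloid-gated cells of EAE 1 against 128 CPM. In EAE 2 Tapbp was at 246 CPM (8 UMIs) and 129 CPM (6 UMIs) in these classes against 178 CPM. B2m was at 5068 and 4788 CPM in lymphocyte-gated cells (28 and 18 cells) and at 6214 and 6089 CPM in myeloid-gated cells (89 and 5 cells) of EAE 1 and EAE 2. Fibroblast-gated cells had 4629 and 1869 CPM, so in EAE 1 their B2m level was close to that of the lymphocytes, and in EAE 2 it was well under it. H2-K1 was higher in lymphocyte-gated than in fibroblast-gated cells, at 2189 and 1402 CPM (log2 difference 1.34, SE 0.44; edgeR adjusted p = 0.0470), where 9.01% of all genes tested were higher. This was 1 of 9 genes, and it did not pass when the gates took 3 or 10 UMIs.

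For myeloid-gated cells 0 of 9 genes passed, where 10.1% of all genes were higher. An unadjusted edgeR p under 0.05, in either direction, was found for 4 of the 9 and for 1433 of 4149 genes. Their Psmb8 level was 1604 CPM in EAE 1 and 185 CPM, from 6 UMIs, in EAE 2. For mural cells against fibroblast-gated cells 0 of 10 passed, where 4.13% of all genes were higher. An unadjusted edgeR p under 0.05, in either direction, was found for 2 of the 10 and for 2131 of 11458 genes. With library totals in place of TMM 1 gene passed. Nlrc5 had 6 UMIs in the myeloid cells of EAE 1 and 4 and 3 in the lymphocytes of EAE 1 and EAE 2, which is 18.2, 40.5 and 64.7 CPM with wide intervals (6.69 to 39.7, 11.1 to 104 and 13.3 to 189 CPM). Melanocyte-gated cells, 45 in EAE 1 and 0 elsewhere, had the lowest levels of EAE 1 for H2-K1 (228 CPM), H2-D1 (530 CPM), B2m (2114 CPM) and Psmb8 (92.0 CPM).

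**Figure D5:**
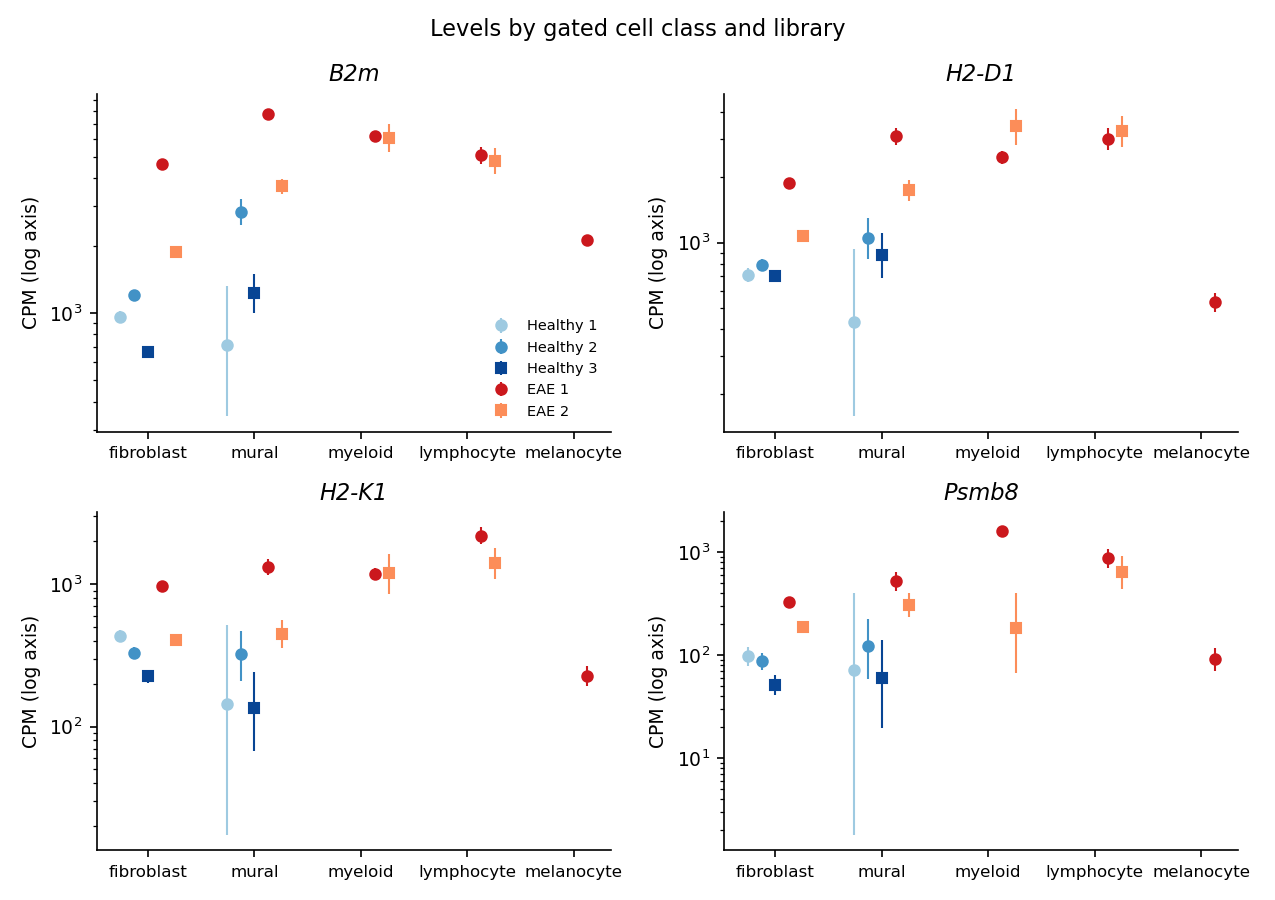
Levels of B2m, H2-D1, H2-K1 and Psmb8 by gated class (horizontal axis) and library, in CPM on a log axis, with 95% Poisson intervals as bars. Within fibroblast-gated and mural cells the EAE points lie above most Healthy points, and melanocyte-gated cells of EAE 1 lie lowest of the EAE 1 classes.

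The genes most like the sum of H2-K1, H2-D1 and B2m were found by Pearson correlation of log2 levels over 11 sums, each of 1 class in 1 library, among 6257 genes. Of these genes, Tap1 ranked 1 (r = 0.99). The parts of the sum themselves had r = 0.98 (B2m), 0.95 (H2-D1) and 0.89 (H2-K1). Psmb8 had r = 0.93, Psmb9 0.76, H2-Q4 0.61, Tap2 0.42 and Tapbp 0.15. The 5 genes outside the set with the highest values were Ifi47 (0.95), H2-T22 (0.94), H2-Q7 (0.94), Zbp1 (0.93) and Mndal (0.93). These points share libraries and differ in depth, so the correlations describe the pattern and carry no test.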

How the data were processed

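The authors deposited UMI counts per gene and barcode, 1 table per library, as raw whole numbers. Per the labels' protocols, GFP-positive cells were sorted from dissociated cords and 10x Genomics v2 libraries were prepared. The submitters' processing notes name Cell Ranger 2.1.1, Seurat 3 and mm10, without settings. The labels of Healthy 3 and EAE 2 hold a sequencing lane, and these libraries were taken as the second batch. EAE 1 and EAE 2 thus lie in different batches, so spread between EAE libraries within a batch was not measured. Genes and lists were chosen with earlier results of these data known.

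Barcodes needed 200 genes or more and a mitochondrial share of UMIs of 10% or less, and no doublet caller was run. Cells passing several class gates numbered 21 in EAE 1, 1 each in Healthy 2 and EAE 2, and 0 in the others. Gates needed 5 UMIs from at least 2 markers (fibroblast last, other classes also 0.3% of the UMIs, erythroid 5%), and sub-gates 3 UMIs. The fibroblast gate may hold arachnoid cells. UMI sums of each class in each library (20 cells or more) were tested with edgeR 4.0.16 in R 4.3.3 (quasi-likelihood F test, TMM, filter on low counts, terms for batch and state), checked on simulated data. The fibroblast-gated sums held 957504 (Healthy 1), 1237542 (Healthy 2), 1486943 (Healthy 3), 8674071 (EAE 1) and 6955185 UMIs (EAE 2). CPM are over plain sums. The SE was taken as the absolute log2 fold change divided by the square root of F.

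Named were the 10 genes, from each other list up to 2 genes higher and 2 lower that passed and averaged 5 CPM or more, and the 5 most alike genes (log2 of CPM plus 5, mean of at least 20 CPM). Others were named as members of a count or after their values were seen. Positions are from GENCODE M21 and promoters from RefSeq. Alternatives were DESeq2 1.42.0, other scalings, filters, gates and barcode rules, no batch term, thinning and each library left out. A result on the list of regulators is not reported here.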

Additional observations from a re-analysis of the deposited data

How the results depend on the processing

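Of 180 values of the 9 tested genes in fibroblast-gated cells under 20 alternatives each, 167 kept their direction and side of the threshold, 13 lost the threshold and 0 changed direction. The number of presentation genes higher was 4 without the batch term and ranged from 3 (without EAE 1) to 8 when each library was left out, and was 6 to 8 under the other alternatives. Genes higher and lower over the whole table, 999 and 1059, were 638 and 622 with DESeq2, 430 and 409 after thinning, and 398 and 379 with shared barcodes removed from every library. Genes higher numbered 576 with all barcodes as deposited and 1651 without the filter on low counts. Leaving out each library gave 408 to 1688 higher and 381 to 1427 lower. With library totals the split was 1248 higher and 887 lower, and the median gene moved to a log2 difference of 0.10.

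In mural cells the number of presentation genes higher was 2 with at least 5 cells, and 4 with library totals, without the filter or as deposited. It was 0 with gates at 10 UMIs, DESeq2 or no batch term, settings where 0 to 5 genes of any kind were higher. With each Healthy library left out it was 0 to 5. Within EAE, mural cells had 1 gene higher with library totals, lymphocytes 0 with gates at 3 or at 10 UMIs, and the Tnc Cxcl9 Col7a1 cells 1 call with library totals. The cause of these changes was not tested. No paired analysis was possible because the labels give EAE 1 no number, so the groups share fewer than 2 replicate numbers. Low UMI counts limit Nlrc5, H2-Q6 and the mural and immune classes. The minimum of 5 cells and the tests of sub-gates within EAE were added after seeing the data.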
